A study of Nannochloropsis oceanica with 15 samples.

Results

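Intron-rich genes, here the gene models with 8 or more exons, numbered 569 of the 9756 gene models of Nannochloropsis oceanica strain IMET1, a single-celled marine alga that stores oil. They were chosen by exon number and scaffold size. The rule holds no expression value, though it was set with earlier results of these data known. It takes 8 or more exon rows in the deposited gene models, on the 29 of 284 scaffolds that carry 100 or more models. Those scaffolds hold 8448 models, so the intron-rich genes made up 6.74% of them. A further 165 models with 8 or more exons lie on smaller scaffolds and were left out.

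Introns are stretches of a gene that are transcribed and then cut out of the RNA by the spliceosome, and the remaining exons are joined into the mature messenger. Each intron has to be recognised at both ends, and the joined exons carry proteins that take part in export and quality control of the messenger. Algae of the genus Nannochloropsis have compact genomes in which most genes hold few introns. They harvest light with chlorophyll a and carotenoids, which absorb blue light strongly, and red light is absorbed by chlorophyll a. Blue light is also sensed by photoreceptors such as cryptochromes and, in this group of algae, aureochromes.

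RNA sequencing was done on 15 libraries in 5 groups of 3, all from wild-type cells grown in column bioreactors at 25 °C under constant illumination of 80 ± 5 µmol photons per second and square metre, with air (0.04% CO2). Cells of 4 groups were taken 12 h or 24 h after a switch to red or blue light (red 12 h, red 24 h, blue 12 h, blue 24 h), and those of white 0 h at the switch. No white library of 12 h or 24 h was analysed here, so colour and time cannot be told apart in any difference from white. Blue against red at the same hour compares the colours at equal time. Aliquots were drawn from the columns, and no label tells whether a group's 3 libraries stem from separate columns. A difference between colours may thus include one between columns. The p-values therefore cover only the spread between the libraries at hand, which may be technical.

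Levels are FPKM, fragments per kilobase of exon relative to a total per library. This is a measure per length, so genes can be compared with each other. Which total each library was divided by is not given in the sources used here. The values were used as deposited, without scaling to a common median. The low values step by whole fragments, which gave back 3130000 to 6440000 fragments per library, of which 225000 to 531000 fell in the intron-rich genes. The median intron-rich gene held 136 fragments in red 24 h library 1, the lowest of the 15, and 490 in white 0 h library 2, the highest. In 498 of the 569 genes every library held 30 or more fragments, and in 71 at least 1 library held fewer. How much of the spread between libraries is counting error was not tested. The files pair the IDs of these genes with no names, so their functions are not given here. A gene is called changed where limma, fitted on log2(FPKM + 1) over all 9601 models tested, gave a Benjamini-Hochberg adjusted p under 0.05. Of the 569 intron-rich genes 563 were tested, and the 6 others did not exceed 1.4 FPKM in any library.

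**Figure D1:**
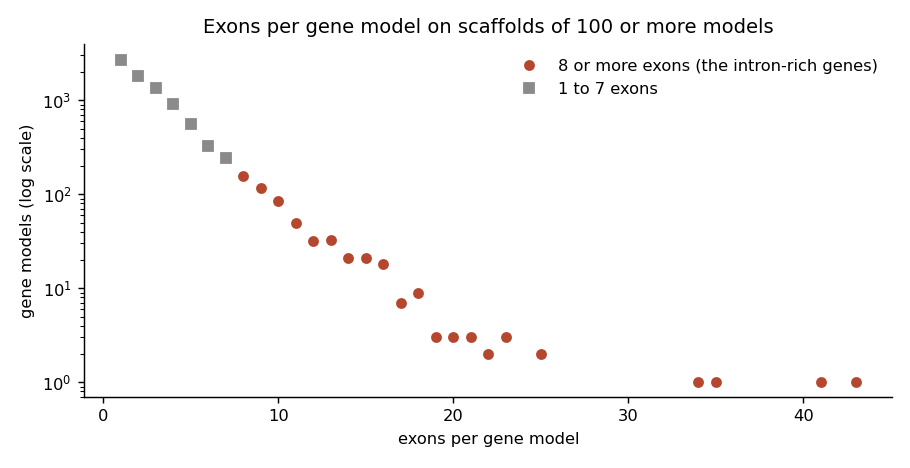
Number of gene models (vertical axis, log scale) by exons per model (horizontal axis) on the 29 scaffolds of 100 or more models. Circles mark the 569 intron-rich genes and squares the models with 1 to 7 exons; the numbers decline with exon number, with 157 models at 8 exons, 241 at 7 and 2680 at 1, and a gene of 43 exons at the far end.

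The threshold of 8 exons cut through a smooth decline. Just inside it lay 157 genes with 8 exons, and just outside it 241 genes with 7. The median intron-rich gene had 10 exons, 295 had 10 or more, 129 had 13 or more and 17 had 20 or more. Their summed exon length had a median of 2680 nt, with quartiles at 1943 and 3901 nt, against 1633 nt for the 2680 single-exon models of the same scaffolds. The genomic span had a median of 5243 nt, of which introns filled 44.6%, with quartiles at 33.3% and 57%. Intron-rich genes thus carried a median of 3.52 introns per kb of exon, against 1.11 in the 5199 models with 2 to 7 exons. The 569 genes held 5617 introns, which is 30.9% of the introns of all models on these scaffolds.

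The median intron was no longer than elsewhere. It was 156 nt in the intron-rich genes, against 160 nt in models with 2 to 7 exons, and the shortest intron in all models was 55 nt. Exons did differ in size within these genes. The first exon had a median of 322 nt and the last of 560 nt, whereas the internal exons had a median of 137 nt. In models with 2 to 7 exons the internal exons had a median of 184 nt.

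Introns over 1000 nt, by contrast, were more frequent than in models with fewer exons, and did not gather at the start of the genes. Among the first introns of the intron-rich genes 3.16% exceeded 1000 nt (18 of 569), against 4.12% of all later ones (208 of 5048). Among the first 7 introns, which every one of these genes has, the share was lowest for the second, at 1.93%, and highest for the fifth, at 6.15%. In models with 2 to 7 exons 1.58% of the first introns and 3.3% of the later ones exceeded that length. An intron over 1000 nt was present in 189 of the 569 intron-rich genes.

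The intron-rich genes were spread over all 29 scaffolds, with 273 on the plus strand and 296 on the minus strand. Their share of the models ran between 1.10% on scaffold00341 (2 of 182) and 19.5% on scaffold00245 (26 of 133). None overlapped another gene model on either strand, so reads of a neighbouring model do not enter their values through a shared position. Next to each other lay 159 of them, in 88 adjacent pairs.

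To set exon number apart from length, each intron-rich gene was paired with a single-exon model of the same summed exon length. Within a log2 length difference of 0.15, a match was found for 557 of the 569. The 12 without a match were long, with a median of 9709 nt of exon. The matches had a median of 2625 nt, against 2626 nt for the intron-rich genes that were matched.

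Red 24 h library 1 stood apart from its group in a way that follows exon length, and the shift was smaller in the intron-rich genes than in their single-exon matches. Relative to the mean of libraries 2 and 3, it was lower by a median log2 of -0.38 in the intron-rich genes, -0.56 in the matches and -0.31 in all models. Among pairs in the shortest of 3 equal classes of length the shift was -0.27 in intron-rich genes and -0.36 in matches. In the middle class it was -0.38 in intron-rich genes and -0.63 in matches, and in the longest -0.43 and -0.63. White library 1 was also low, by -0.29 in both intron-rich genes and matches and -0.28 in all models, with no such split. Mean fragment length was 128.6 nt in red 24 h library 1 and 135.5 to 148.0 nt in the other 14, and its part in the shift was not tested.

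Intron-rich genes were expressed at ordinary levels. Averaged over the 5 groups, their median was 23.4 FPKM, against 19.5 FPKM in the length-matched single-exon models and 23.5 FPKM in all 9756 models. Below 10 FPKM stood 18.5% of them, against 24.2% of the matches and 21.6% of all models. At 100 FPKM or more stood 9.31%, against 6.46% of the matches and 11.2% of all models. At least 1 FPKM in every one of the 15 libraries was reached by 535 of the 569, and none was at 0 in all of them.

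The median level differed little between the groups, apart from 2 libraries. In white 0 h the median intron-rich gene had 20.6, 24.7 and 25.7 FPKM in libraries 1, 2 and 3. In red 12 h it had 22.0, 22.7 and 22.7 FPKM, and in red 24 h 16.2, 21.5 and 21.8 FPKM. In blue 12 h it had 21.6, 21.8 and 21.9 FPKM, and in blue 24 h 22.8, 22.6 and 22.7 FPKM. White library 1 and red 24 h library 1 stood below the other libraries of their groups, and the remaining 13 libraries lay between 21.5 and 25.7 FPKM. The median single-exon match had 18.2, 22.2 and 22.6 FPKM in white, 20.3, 20.3 and 19.9 in red 12 h and 12.2, 17.9 and 19.3 in red 24 h, with 18.1, 18.0 and 17.9 in blue 12 h and 17.9, 17.7 and 18.0 in blue 24 h. In each of the 15 libraries the median of the intron-rich genes was the higher of both.

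**Figure D2:**
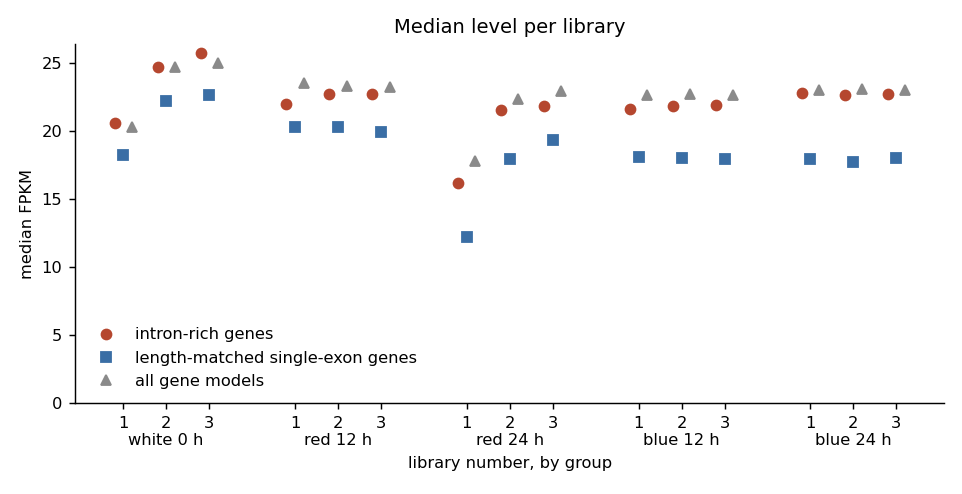
Median FPKM (vertical axis) in each of the 15 libraries (horizontal axis, library number within group) of the 569 intron-rich genes (circles), their 557 length-matched single-exon models (squares) and all 9756 models (triangles). The circles lie above the squares in every library, and library 1 of red 24 h is lowest for all 3 sets, at 16.2 FPKM for the intron-rich genes and 12.2 FPKM for the matches.

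Pair by pair, the intron-rich gene exceeded its match by a median of 0.23 ± 0.02 on the log2(FPKM + 1) scale in white (SD, n = 3 libraries), 0.06 ± 0.02 in red 12 h and 0.29 ± 0.22 in red 24 h, with 0.17 ± 0.05 in blue 12 h and 0.24 ± 0.04 in blue 24 h. The intron-rich gene was the higher of its pair in 51.2% to 57.6% of pairs, so the pairs differed little more often one way than the other. The excess in red 24 h was 0.54, 0.23 and 0.10 in libraries 1, 2 and 3, and without library 1 it was 0.17. No test was made, since genes are not replicates. Against all single-exon models, unmatched for length, the median of the intron-rich genes was higher by 0.10 in white, 0.01 in red 24 h and 0.09 in blue 24 h.

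Level differed with exon number within the intron-rich genes. Genes with 8 to 9 exons had a median of 25.0 FPKM over the groups, those with 10 to 12 exons 24.2 FPKM and those with 13 or more exons 19.0 FPKM. The median model with 4 to 7 exons had 28.5 FPKM and the median single-exon model 21.9 FPKM. Length also differed between the classes, with medians of 2304, 2618 and 3679 nt of exon for 8 to 9, 10 to 12 and 13 or more exons. Across the 569 genes Spearman's rho of the mean log2 level was -0.09 with exon number, -0.22 with summed exon length and 0.18 with introns per kb of exon. All of these are descriptions over genes of the same libraries, and all are weak. Genes with an intron over 1000 nt had a median of 20.3 FPKM in white, against 26.9 FPKM in those without.

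Replicates of intron-rich genes lay as close together as those of other genes or slightly closer. The median SD of log2(FPKM + 1) over the 3 libraries of a group was 0.179 in white, 0.076 in red 12 h and 0.338 in red 24 h, with 0.077 in blue 12 h and 0.067 in blue 24 h. Among the matches it was 0.180, 0.081, 0.392, 0.081 and 0.074 in the same order of groups, and in all models 0.181, 0.094, 0.374, 0.096 and 0.085.

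After the switch of light, more than 50% of the tested intron-rich genes were called different from white in the fit of all 15 libraries, about evenly up and down except for red 24 h, where falls were more frequent. In red 12 h against white 170 were higher and 173 lower of 563 tested. That is 60.9% called, and 57.4% of all 9601 models were called, so the share was near the background. The median log2 change was 0.10 in the intron-rich genes, 0.14 in the matches and 0.17 in all models. Falls took 30.7% of the intron-rich genes, against 26.8% of the matches and 24.6% of all models, and rises 30.2%, 32.1% and 32.8%. Of the calls, 49.6% were rises as deposited and 63.4% once each library's trend with length was removed.

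In blue 12 h against white 167 intron-rich genes were higher and 176 lower, or 60.9% called, with 58.5% of all models called (32.3% higher and 26.1% lower). The median log2 change was 0.07 in the intron-rich genes, 0.05 in the matches and 0.14 in all models. In blue 24 h against white 158 were higher and 163 lower, or 57% called, with 55.0% of all models called (31.1% higher and 23.9% lower) and median changes of 0.08, 0.02 and 0.14. Both shares were near the background. Rises made up 48.7% of the blue 12 h calls as deposited, 64.8% with the length trend removed, and voom on the recovered fragments gave 36.3%. For blue 24 h they made up 49.2%, 65.8% and 36.4% under the same 3 settings.

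With the length trend removed the intron-rich median was 0.28 in red 12 h against white and 0.33 in both blue 12 h and blue 24 h, and with voom it was -0.04, -0.09 and -0.08. All models moved with it, to 0.29, 0.29 and 0.26 with the length trend removed and 0.04, -0.02 and -0.01 with voom. The direction of the median change from white thus depends on the scaling.

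In red 24 h against white falls were the more frequent, with 122 intron-rich genes higher and 203 lower. That is 57.7% called, near the 58.9% of all models, of which 28.8% were higher and 30.1% lower. With only the 6 libraries of both groups in the fit 212 of 563 were called, or 37.7%, with 63 higher and 149 lower. Of all models 38.1% were called in that fit. The median log2 change was -0.12 in the intron-rich genes, -0.25 in the matches and -0.01 in all models, and without red 24 h library 1 it was -0.03, -0.04 and 0.09. This direction rests on the scaling: the intron-rich median was 0.01 under quantile scaling, 0.03 with equal medians, 0.22 with the length trend removed and -0.39 under voom, where all models had 0.15, 0.13, 0.16 and -0.27. Of the calls, 37.5% were rises as deposited, 48.7% under quantile scaling, 48.3% with equal medians, 62.9% with the length trend removed and 22.7% under voom.

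**Figure D3:**
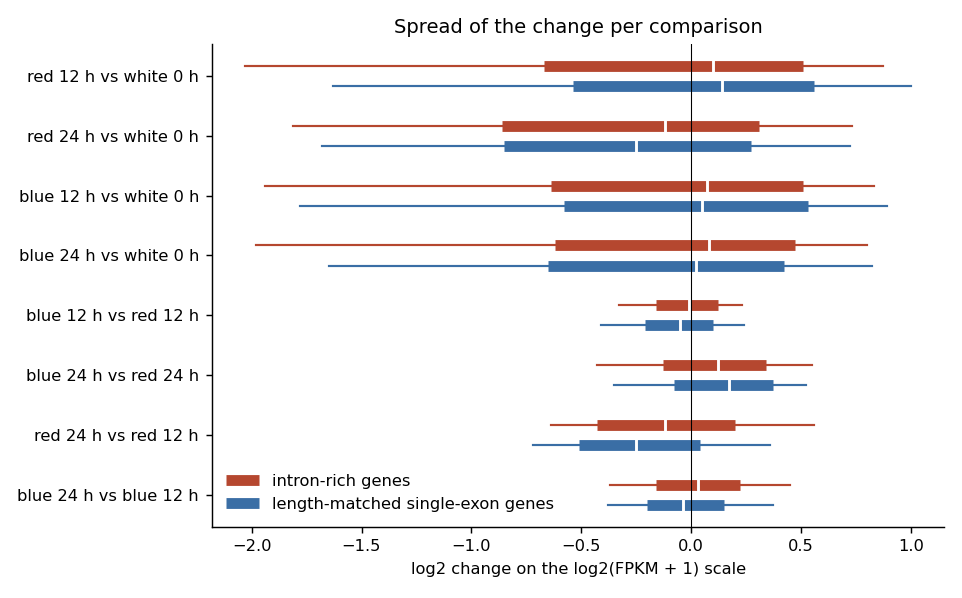
Log2 change on the log2(FPKM + 1) scale (horizontal axis) in the 8 comparisons (vertical axis), for intron-rich genes (upper bar of each pair) and their length-matched single-exon models (lower bar). Thick bars span the quartiles, thin lines the 10th to 90th percentiles, and white ticks mark medians; in red 12 h against white the 10th percentile lay at -2.03 for intron-rich genes and at -1.63 for the matches.

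Each intron-rich gene was also set against its own match. The median difference in log2 change within pairs, intron-rich minus match, was -0.02 in red 12 h and 0.06 in red 24 h, with -0.01 in blue 12 h and 0.06 in blue 24 h, each against white. It was 0.03 for blue 12 h against red 12 h, -0.05 for blue 24 h against red 24 h, 0.13 for red 24 h against red 12 h and 0.06 for blue 24 h against blue 12 h. The spread between libraries at hand was that of the level excess, combined over both groups of a comparison. Its SD was 0.03, 0.23, 0.06, 0.05, 0.06, 0.23, 0.23 and 0.07 in the same order. That SD describes differences in level, so it cannot tell whether the differences in change exceed their own spread. The size and sign depend on the choice of match. Matched for length and level, the difference in change from white was -0.11 for red 12 h, with -0.13 for blue 12 h and -0.06 for blue 24 h, and for genes of 10 or more exons it was 0.06, 0.09 and 0.15. The same SDs were carried over to these other matches, so the spread of these 6 values was not determined either. Without red 24 h library 1 the values for red 24 h against white, blue 24 h against red 24 h and red 24 h against red 12 h were 0.02, 0.03 and 0.05.

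The white comparisons had a long lower tail. At least 4-fold lower and called were 57 intron-rich genes in red 12 h and 51 in red 24 h, with 56 in blue 12 h and 55 in blue 24 h, each against white. These are 10.1%, 9.06%, 9.95% and 9.77% of the tested intron-rich genes, and 8.68%, 7.31%, 8.86% and 8.22% of all models, so the excess over the background was small. At least 2-fold higher and called were 36, 30, 28 and 34 intron-rich genes in the same 4 comparisons, or 6.39%, 5.33%, 4.97% and 6.04%, against 8.88%, 9.57%, 8.27% and 8.50% of all models. That these shares lay below the background holds for the values as deposited. With the length trend removed they were 12.8%, 12.8%, 13.9% and 11.9%, against 12.2%, 12.2%, 12.6% and 11.2% of all models, and under quantile scaling 64 genes rose in red 12 h. These 4 comparisons share the white libraries.

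All 3 white libraries lay above the 12 others in 149 intron-rich genes, or 26.5%, against 26.5% of the matches and 21.0% of all models. They lay below the 12 others in 88, or 15.6%, against 13.7% of the matches and 20.8% of all models. By group means, white was the highest of the 5 groups in 35.9% of the intron-rich genes and the lowest in 38.5%. Those shares were 36.5% and 35.8% in the matches and 31.4% and 42.1% in all models. Beside all models the means thus leaned the same way as the non-overlapping libraries, though without an excess of high over low. White library 1 was low in all sets.

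The 57 genes with the deep fall in red 12 h were spread over 27 scaffolds, with at most 5 on a single scaffold, scaffold00324, which carries 25 intron-rich genes. Their median was 45.9 FPKM in white, 6.01 in red 12 h and 6.78 in red 24 h, with 4.62 in blue 12 h and 4.50 in blue 24 h. Their levels were low in each of the 12 red and blue libraries. Leaving out any library left 56 to 59 genes in this class.

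Between both colours at 24 h, most of these 57 genes had the lower mean in blue. The mean of blue 24 h lay below that of red 24 h in 48 of 57, and below that of red 24 h libraries 2 and 3 in 54 of 57. Called lower in blue 24 h than in red 24 h were 21 of the 57, or 36.8%, and called higher were 2. Over all 563 tested intron-rich genes 35 were called lower, or 6.22%. The comparison shares no library with the one that chose the 57. Among the matches 17 of 50 with the same fall from white were called lower in blue at 24 h, and among all models 267 of 833, or 32.1%, so the pattern was shared with genes of other structure. The count of 21 ran between 14 and 30 when each library was left out, and was 4 with only the 6 libraries of both groups in the fit.

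The 36 genes that were at least 2-fold higher in red 12 h had medians of 26.7 FPKM in white, 63.2 in red 12 h and 58.0 in red 24 h, with 54.6 in blue 12 h and 60.3 in blue 24 h. Between blue and red at 24 h they had no common direction. Blue 24 h lay below red 24 h in 16 of the 36, and below libraries 2 and 3 of red 24 h in 22. Called lower were 5 and higher 2, and without red 24 h library 1 lower calls numbered 8. The 5 are 13.9% of the 36. Of the 853 models in all with the same rise 119 were called lower, or 14.0%, so the share was at the background, and 74 higher. Among the matches 4 of 55 were called lower, or 7.27%, and 6 higher.

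At 12 h few intron-rich genes were called between blue and red in the fit of all 15 libraries, and more in the fit of the 6 libraries compared. Higher in blue 12 h than in red 12 h were 5 and lower 15 of 563, or 3.55% called, against 2.76% of all models (0.719% higher and 2.04% lower), near the background, and 22 of 548 matches were called. The median log2 change was -0.01, and the central 80% of genes lay between -0.33 and 0.23. The count depends on single libraries. Without red 24 h library 1 it was 79, or 14%, against 16.1% of all models. With only the 6 libraries compared in the fit it was 122, or 21.7%, against 25.5% of all models. It was 4, 6 and 6 without red 12 h libraries 1, 2 and 3. Without blue 12 h libraries 1, 2 and 3 it was 7, 8 and 7. These last counts were 0.71% to 1.42% of the intron-rich genes, against 0.781% to 1.02% of all models. Of the calls, 25.0% were rises as deposited, 41.9% with equal medians and 52.1% with the length trend removed.

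At 24 h the count was larger in the fit of all 15 libraries and smaller in the fit of the 6 compared. The fit of 6 called 5 genes, or 0.888%, against 0.458% of all models. In the fit of all 15 libraries 49 intron-rich genes were higher in blue 24 h than in red 24 h and 35 lower. That is 14.9% called, against 12.0% of all models and 60 of 548 matches, so in this fit the share was somewhat above the background. The direction rests on single libraries: without red 24 h library 1 49 were higher and 68 lower, and without blue 24 h libraries 1, 2 and 3 11, 11 and 11 were higher and 20, 19 and 20 lower. Higher calls took 8.70% of the intron-rich genes, against 5.11% of the matches and 5.67% of all models, and lower calls took 6.22%, 5.84% and 6.34%. Without red 24 h library 1 20.8% were called, against 18.1% of all models. Without library 3 of that group the count was 196, or 34.8%, against 35.3% of all models. Without blue 24 h libraries 1, 2 and 3 it was 31, 30 and 31. Those are 5.51%, 5.33% and 5.51%, against 5.02%, 4.76% and 4.99% of all models. The excess over the background thus depends on the libraries in the fit. Of the calls, 58.3% were rises as deposited, 46.7% with equal medians and 73.1% with voom. Of the 5 genes higher in blue at 12 h 3 were also higher at 24 h, which is 60% of the 5 and 6.12% of the 49. Of the 15 lower in blue at 12 h 5 were also lower at 24 h, or 33.3% of the 15 and 14.3% of the 35, and none was called in the opposite direction. These shares were near those of all models, which were 55.1% and 6.99% for higher calls and 36.2% and 11.7% for lower calls.

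Over time in red light, 63 intron-rich genes were higher in red 24 h than in red 12 h and 104 were lower. That is 29.7% called, near the 28.7% of all models (12.8% higher and 15.8% lower), and 172 of 548 matches were called. The median log2 change was -0.12 in the intron-rich genes, -0.25 in the matches and -0.08 in all models. Without red 24 h library 1 it was -0.02, -0.08 and 0.01, with 86 intron-rich genes higher and 83 lower. Called in that fit were 30% of the intron-rich genes, against 30.9% of all models. The count was 98, 73 and 70 without red 12 h libraries 1, 2 and 3 and 256 without red 24 h library 3. Those are 17.4%, 13%, 12.4% and 45.5%, against 17.3%, 13.9%, 13.5% and 46.6% of all models. Of the calls, 37.7% were rises as deposited, 51.9% with equal medians, 52.8% with the length trend removed and 23.5% under voom.

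In blue light, 34 intron-rich genes were higher in blue 24 h than in blue 12 h and 22 were lower, or 9.95% called, against 7.24% of all models (4.48% higher and 2.76% lower) and 42 of 548 matches, again somewhat above the background. With only the 6 libraries compared in the fit 238 were called, or 42.3%, against 37.4% of all models. The count was 159 without red 24 h library 1, or 28.2%, against 25.5% of all models. It was 31, 35 and 26 without blue 12 h libraries 1, 2 and 3 (5.51%, 6.22% and 4.62%, against 3.83%, 4.16% and 3.75%). Without blue 24 h libraries 1, 2 and 3 it was 31, 28 and 31 (5.51%, 4.97% and 5.51%, against 3.69%, 3.82% and 3.69%). Of the calls, 60.7% were rises as deposited and 49.5% with equal medians. Of the 34 genes that rose in blue, 21 also rose in red, which is 61.8% of the 34 and 33.3% of the 63, while 4 of the 63 were lower in blue 24 h than in blue 12 h. Of the 22 that fell in blue 11 also fell in red, or 50% of the 22 and 10.6% of the 104. In all models the shares were 58.8% and 20.5% for rises and 60.4% and 10.5% for falls. No library is shared between the time courses of the colours. The change over time differed between the colours in 16 intron-rich genes, by limma's interaction, or 2.84%, against 2.28% of all models. It was the more positive in blue in 2 and the more negative in 14 of the 16, where all models had 0.740% and 1.54%. The count was 54 and 69 without red 24 h libraries 1 and 3, or 9.59% and 12.3%, against 7.82% and 10.9% of all models. It was 10 and 9 without red 12 h libraries 2 and 3. It was 10 and 10 without blue 12 h libraries 1 and 3, and 10 and 10 without blue 24 h libraries 1 and 2. These lower counts were 1.6% to 1.78% of the intron-rich genes, against 1.26% to 1.46% of all models. Positive values made up 12.5% of these calls as deposited, 40.0% under quantile scaling, 30.6% with equal medians, 38.6% with the length trend removed and 58.8% under voom.

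Within the intron-rich genes, the red time course varied with exon number. Lower in red 24 h than in red 12 h were 13.3% of the genes with 8 to 9 exons, 20.7% of those with 10 to 12 and 26.4% of those with 13 or more. Higher were 14.1%, 10.4% and 6.20% of the same classes. Without red 24 h library 1 the shares that fell were 11.5%, 14.0% and 22.5%. The single-exon matches of the same 3 classes, which have the same lengths, fell in 22.6%, 22.6% and 23.7%, and in 18.8%, 17.1% and 17.8% without that library. The matched intron-rich genes fell in 13.2%, 20.2% and 23.6%, so these shares differed by class among them and hardly among their matches. Median log2 changes moved alike, at -0.08, -0.10 and -0.19 in the matched intron-rich genes and -0.23, -0.24 and -0.31 in the matches. With the length trend removed, 15.6%, 19.5% and 21.7% of the intron-rich genes fell. Spearman's rho of the change was -0.13 with exon number and -0.17 with summed exon length. Exon number and length were thus not told apart. The genes of 13 or more exons had the larger share of falls than those of 8 to 9 in 22 of 23 alternatives, the exception being the fit of only the 6 libraries, which called 13 genes in all. The shares themselves depend on single libraries. In genes of 13 or more exons the share that fell was 9.30% without red 12 h library 3 and 35.7% without red 24 h library 3, and in those of 8 to 9 exons it was 5.56% without red 12 h library 2 and 26.3% without red 24 h library 3.

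Blue against red at 24 h ran the other way with exon number. Higher in blue 24 h were 5.19% of the genes with 8 to 9 exons, 11.6% of those with 10 to 12 and 12.4% of those with 13 or more. Lower in blue 24 h were 9.63%, 3.66% and 2.33%. Without red 24 h library 1 the higher shares were 6.30%, 11.6% and 10.1% and the lower shares 15.9%, 9.76% and 6.98%. The higher shares were 21.5%, 25.6% and 27.9% without red 24 h library 3, and 0.370%, 0% and 0% with only the 6 libraries compared in the fit. Without blue 24 h library 1 they were 1.11%, 2.44% and 3.10%, and without library 2 or library 3 of that group 0.741%, 3.05% and 3.10%. The single-exon matches were higher in blue in 5.26%, 6.10% and 3.39% of the same classes, with no rise across them. The matches were lower in blue in 4.51%, 6.71% and 7.63%, against 9.81%, 3.68% and 2.44% of the matched intron-rich genes. Median log2 changes were 0.19, 0.16 and 0.16 in the matches and 0.09, 0.11 and 0.16 in the matched intron-rich genes. Spearman's rho of the change was 0.11 with exon number and 0.10 with summed exon length, so both were not told apart. This comparison and the red time course share the red 24 h libraries.

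**Figure D4:**
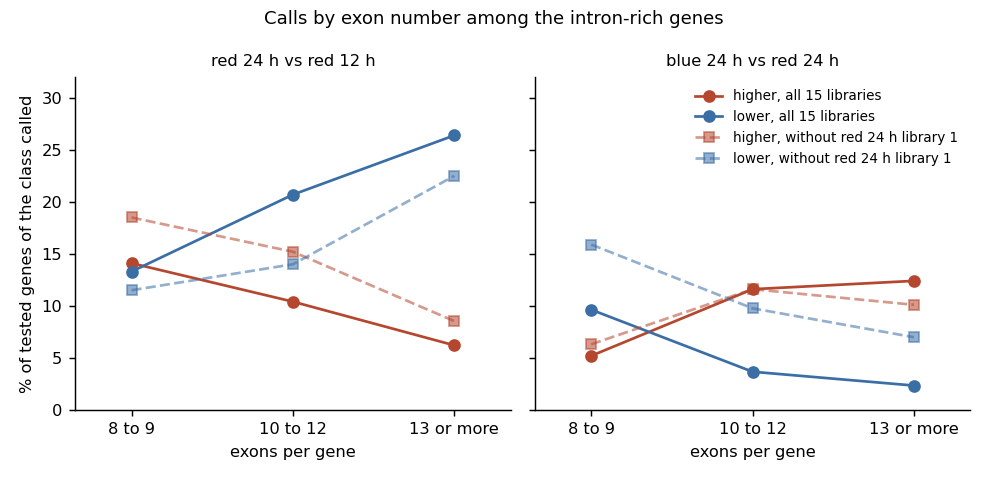
Percent of tested intron-rich genes called higher (red) or lower (blue) by exons per gene, in red 24 h against red 12 h (left) and blue 24 h against red 24 h (right). Solid lines use all 15 libraries and dashed lines leave out red 24 h library 1; falls in the red time course reached 26.4% in genes of 13 or more exons, against 13.3% in those of 8 to 9.

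At the threshold itself the white comparisons differed somewhat. Of the genes with 8 exons 65.8% were called in red 12 h against white and 32.9% fell, and of the genes with 7 exons 56.4% were called and 23.1% fell. The median gene with 8 exons had 23.9 FPKM in red 12 h and 28.3 in white, and the median gene with 7 exons had 23.5 FPKM in red 12 h and 22.7 in white. Among genes of 13 or more exons 57.4% were called and 26.4% fell. So the share that fell did not grow with exon number beyond 8.

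**Figure D5:**
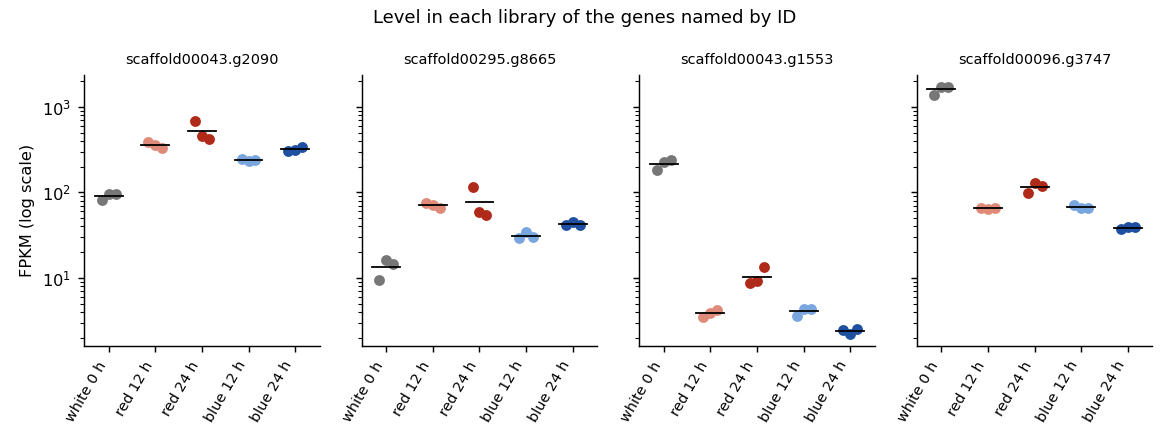
FPKM (vertical axis, log scale) in each library of the 4 intron-rich genes named by ID; points are libraries 1, 2 and 3 of each group, bars are group means. Both genes on the left lie lowest in white and both on the right highest in white, where scaffold00096.g3747 averaged 1591 FPKM, against 38.7 FPKM in blue 24 h.

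Named below by ID are the 2 intron-rich genes with the largest rise from white and the 2 with the largest fall, in the fit of all 15 libraries. Each passed the test in the comparison that named it in all 23 alternatives run. The files give no product for any of them.

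The largest rise was that of scaffold00043.g2090, a gene of 9 exons and 1795 nt of exon (scaffold00043:1607461-1610763 of the IMET v2 models, minus strand). It had 386, 354 and 332 FPKM in red 12 h and 690, 458 and 420 in red 24 h, with 243, 235 and 236 in blue 12 h and 306, 309 and 336 in blue 24 h, against 82.5, 95.5 and 96.9 in white. All 12 red and blue libraries lay above the 3 white ones, and library 1 of red 24 h was far above the other libraries of its group. The log2 change in red 24 h against white was 2.47 ± 0.15 (SE), with a limma adjusted p of 5.12e-09. Without that library it was 2.25. In red 12 h against white the change was 2.33 in scaffold00295.g8665 and 2.32 in a gene at scaffold00095:331697-336091. The first rank of scaffold00043.g2090 thus rests on red 24 h library 1. The smaller excess over white in blue 12 h was 1.37 ± 0.15 (limma adjusted p = 1.84e-06). Blue 24 h was lower than red 24 h by -0.69 ± 0.15 (limma adjusted p = 0.0105), a call lost with only the 6 libraries in the fit (limma adjusted p = 0.236).

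Next came scaffold00295.g8665, with 8 exons and 1656 nt of exon (scaffold00295:1001280-1004681, plus strand). It had 74.3, 70.8 and 66.0 FPKM in red 12 h and 115, 59.1 and 55.0 in red 24 h, with 29.0, 34.6 and 30.3 in blue 12 h and 41.5, 44.8 and 41.8 in blue 24 h, against 9.58, 16.4 and 14.4 in white. The groups of 12 h did not overlap, and the mean of red 12 h was 2.25-fold that of blue 12 h. The log2 change in red 24 h against white was 2.37 ± 0.23 (SE, limma adjusted p = 5.53e-07). Red 24 h library 1 again stood far above libraries 2 and 3, and without it the change was 2.04. Blue 12 h was lower than red 12 h by -1.14 ± 0.23 (limma adjusted p = 0.0152). That call was lost without red 12 h libraries 1, 2 or 3 (limma adjusted p = 0.0789, 0.0739 and 0.0614) and without blue 12 h libraries 1 or 3 (0.0787 and 0.0715).

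The deepest fall was that of scaffold00043.g1553, with 9 exons and 4184 nt of exon (scaffold00043:14516-19694, plus strand), the sixth of the 533 models of its scaffold. Introns filled 19.2% of its span. It had 3.53, 3.89 and 4.20 FPKM in red 12 h and 8.71, 9.19 and 13.4 in red 24 h, with 3.65, 4.34 and 4.35 in blue 12 h and 2.50, 2.23 and 2.55 in blue 24 h, against 185, 225 and 236 in white. The blue 24 h values rest on 53 to 60 fragments per library. Blue 24 h and white differed by a log2 of -5.98 ± 0.16 (SE, limma adjusted p = 1.31e-12). Red 24 h was higher than red 12 h by 1.21 ± 0.16 (limma adjusted p = 0.000146).

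The next fall was that of scaffold00096.g3747, with 10 exons and 1482 nt of exon (scaffold00096:853738-856630, plus strand), number 270 of the 276 models of its scaffold. It had 66.2, 63.4 and 66.4 FPKM in red 12 h and 98.5, 129 and 118 in red 24 h, with 70.6, 65.5 and 66.2 in blue 12 h and 37.4, 39.0 and 39.8 in blue 24 h, against 1372, 1706 and 1696 in white. Blue 24 h was lower than white by a log2 of -5.32 ± 0.12 (SE, limma adjusted p = 3.74e-13). At 12 h both colours overlapped, while at 24 h blue was lower than red by -1.54 ± 0.12 (limma adjusted p = 5.80e-06). In red the gene was higher at 24 h than at 12 h, by 0.80 ± 0.12 (limma adjusted p = 0.000373), and in blue it was lower, by -0.78 ± 0.12 (limma adjusted p = 0.000844). The rise in red missed the threshold with only the 6 libraries in the fit (limma adjusted p = 0.0504).

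Other intron-rich genes are given by position. The gene with the most exons, 43 in 5817 nt of exon, lies at scaffold00026:1418741-1430543 on the minus strand, with introns of 82 to 284 nt. It had 55.4, 56.1 and 59.6 FPKM in red 12 h and 24.4, 40.8 and 43.6 in red 24 h, with 43.2, 50.3 and 48.6 in blue 12 h and 48.9, 51.8 and 48.9 in blue 24 h, against 37.9, 49.1 and 51.9 in white. It passed in no comparison with white as deposited, where its log2 changes ran between -0.37 and 0.31. With the length trend removed it was called higher than white in all 4, by 0.62 in red 12 h and 0.29 in red 24 h, with 0.43 in blue 12 h and 0.59 in blue 24 h (limma adjusted p = 2.49e-05, 0.00945, 0.000524 and 3.98e-05). Under voom it was called lower in red 24 h, by -0.65 (adjusted p = 0.0083), so its direction there turned with the scaling. Red 24 h was lower than red 12 h by -0.68 ± 0.18 (SE, limma adjusted p = 0.0146). That call was lost without red 12 h library 3 (limma adjusted p = 0.0556) and with only the 6 libraries in the fit (limma adjusted p = 0.163).

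The largest span, 27028 nt, belonged to a gene of only 8 exons on the same scaffold (scaffold00026:1356244-1383271, minus strand). Its exons sum to 25614 nt and its introns fill 5.23% of the span, the lowest share among the intron-rich genes. It had 5.75, 7.07 and 6.97 FPKM in red 12 h and 3.15, 3.67 and 5.25 in red 24 h, with 5.75, 6.64 and 6.32 in blue 12 h and 5.09, 4.66 and 4.65 in blue 24 h, against 2.69, 3.56 and 3.57 in white. In red 12 h it was higher than in white by a log2 of 0.83 ± 0.17 (SE, limma adjusted p = 0.000569). In blue 12 h it was higher than in white by 0.77 ± 0.17 (limma adjusted p = 0.00111). Both passed in all 23 alternatives, with log2 changes that reached 1.68 for red and 1.74 for blue. Red 24 h was higher than white by 0.22 (limma adjusted p = 0.274), and by 1.22 with the length trend removed (limma adjusted p = 8.14e-08). It passed under quantile scaling and with equal medians too (limma adjusted p = 7.66e-07 and 0.0264).

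The highest mean level, 1016 FPKM over the groups, was that of a gene of 8 exons at scaffold00185:595276-598245 on the minus strand. It had 961, 900 and 887 FPKM in red 12 h and 2898, 1443 and 1131 in red 24 h, with 1042, 1028 and 982 in blue 12 h and 837, 861 and 834 in blue 24 h, against 406, 513 and 519 in white. All 12 red and blue libraries lay above white, and red 24 h library 1 stood far above libraries 2 and 3. It was higher than white by a log2 of 0.94 ± 0.24 (SE) in red 12 h (limma adjusted p = 0.00333) and 1.09 ± 0.24 in blue 12 h (limma adjusted p = 0.00110).

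A pair of further genes was chosen after their values were seen. The gene with the largest excess of blue over red at 12 h, of 13 exons, lies at scaffold00127:6916-11385 on the plus strand. It had 22.7, 25.1 and 22.7 FPKM in blue 12 h, against 7.95, 7.30 and 6.29 in red 12 h. It had 44.6, 46.3 and 49.7 FPKM in blue 24 h, against 27.0, 34.7 and 34.4 in red 24 h, and 29.1, 36.5 and 34.5 in white. So every red 12 h library lay below all libraries of the other groups, and red 24 h overlapped with white. The log2 excess of blue over red at 12 h was 1.59 ± 0.13 (SE, limma adjusted p = 1.65e-05). At 24 h it was 0.54 ± 0.13 (limma adjusted p = 0.0191), a call lost without blue 24 h library 1, 2 or 3 (limma adjusted p = 0.0517, 0.0655 and 0.0838) and with only the 6 libraries in the fit (limma adjusted p = 0.218).

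The largest rise in blue, also in a gene of 13 exons, was at scaffold00095:331697-336091 on the minus strand. It had 918, 907 and 901 FPKM in blue 12 h and 868, 872 and 869 in blue 24 h, and 922, 928 and 945 in red 12 h and 517, 923 and 940 in red 24 h, against 159, 203 and 199 in white. Red 24 h library 1 was the lowest of the 12 red and blue libraries. Blue 12 h was higher than white by a log2 of 2.28 ± 0.18 (SE, limma adjusted p = 4.13e-08), and blue and red did not pass the test at either time.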

How the data were processed

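The authors deposited FPKM values in 5 tables, each with the 3 libraries of a group, beside the IMET v2 gene models, per the file headers. Cufflinks 2.0.4, TopHat2 2.0.4 and TopHat are listed in the submitters' processing notes. Settings, use of strand and the total in the FPKM denominator are not given in the sources used here. Per the labels' protocols, the library kit was Illumina's TruSeq RNA kit.

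Exons were counted as exon rows per gene ID. For each intron-rich gene (member), in order of decreasing summed exon length, the unused single-exon model nearest in length was taken as its match, at most 0.15 away on the log2 scale. limma 3.58.1 in R 4.3.3 (lmFit, contrasts, eBayes with a trend) was fitted on log2(FPKM + 1) to all 15 libraries, for the 9601 models with at least 1 FPKM in at least 3 libraries. P-values are two-sided and adjusted by Benjamini-Hochberg within each comparison. A fold change on this scale understates the change of low genes. The fit was tested on simulated data. Summaries were made in Python 3.11.15 (scipy 1.17.1, pandas 2.3.3, numpy 2.4.6).

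Fragments were recovered from the FPKM steps: within 0.1, 100.0% of low values were whole fragments. They gave the depths and an added alternative, voom. The alternatives were a pseudocount of 0.1, no filter, quantile normalization (quantile scaling), equal library medians, each library's trend with exon length removed (loess, span 0.5, which also recentres the library), only the groups compared, a replicate block, other matches and leaving out each library. The members and lists were chosen with earlier results of these data known.

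The files pair the members' IDs with no names, and the reference table of 160 organelle genes (assembly ASM5162214v2) matched 0 IDs. So 2 rising and 2 falling members are printed by ID: those with the largest log2 change from white among members that passed, whose groups stayed separate and whose mean reached 10 FPKM in either group. By position are given the members with the most exons, the largest span and the highest mean level.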

Additional observations from a re-analysis of the deposited data

Results flagged for a closer look

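The change over time, 24 h against 12 h, was tested for a difference between blue and red light with limma's interaction, given as the change in blue minus that in red on the log2 scale. It passed in 16 intron-rich genes, or 2.84%, near the 2.28% of all models. For scaffold00043.g1553 it was -1.79 (limma adjusted p = 0.000878), with means of 2.43 FPKM in blue 24 h and 4.12 in blue 12 h, and 10.4 FPKM in red 24 h and 3.87 in red 12 h. For scaffold00096.g3747 it was -1.58 (limma adjusted p = 0.000231), with means of 38.7 FPKM in blue 24 h and 67.4 in blue 12 h, and 115 FPKM in red 24 h and 65.3 in red 12 h. For the gene of 13 exons at scaffold00127:6916-11385 it was -1.04 (limma adjusted p = 0.00842), with means of 46.9 FPKM in blue 24 h and 23.5 in blue 12 h, and 32 FPKM in red 24 h and 7.18 in red 12 h. These 3 passed in all 23 alternatives run.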

How the results depend on the processing

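The count of changed intron-rich genes in each comparison was recomputed under 23 alternatives, and the level and change beside single-exon models under other matches. Of these values 188 stayed within the range set for calling them alike and 75 moved. In the comparison that named it, each of the 4 genes named by ID kept direction and call, in 92 recomputed values, whereas some of their calls in other comparisons were lost. With only the groups compared in the fit, 212 genes were called in red 24 h against white (37.7%, against 38.1% of all models). In blue against red at 12 h 122 were called (21.7%, against 25.5%), and at 24 h 5 (0.888%, against 0.458%). For 24 h against 12 h it was 13 in red (2.31%, against 2.16%) and 238 in blue (42.3%, against 37.4%). Under quantile scaling, equal medians and length trend removed, the counts were 40, 43 and 48 in blue 12 h against red 12 h. They were 7.1%, 7.64% and 8.53% of the tested intron-rich genes, against 6.31%, 6.41% and 7.57% of all models. In blue 24 h against red 24 h they were 127, 135 and 156 (22.6%, 24% and 27.7%, against 18.2%, 18.8% and 22.4%). In blue 24 h against blue 12 h they were 100, 99 and 108 (17.8%, 17.6% and 19.2%, against 13.1%, 12.3% and 13.4%). For the interaction they were 35, 36 and 44 (6.22%, 6.39% and 7.82%, against 4.42%, 5.25% and 5.94%). Voom, chosen after seeing the data, gave 31, 130 and 34 in the first, second and last of these. Those are 5.51%, 23.1% and 6.04%, against 4.33%, 18.3% and 3.6% of all models. The cause was not tested.

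Leaving out each library gave 316 to 421 genes in red 12 h against white, or 56.1% to 74.8%. Of all models 50.9% and 73.2% were called in the same fits. In red 24 h against white it gave 283 to 372 (50.5% to 66.1%, with 52.8% and 67.2% of all models). In blue 12 h against white it gave 303 to 424 (54.1% to 75.3%, with 51.4% and 73.1%). In blue 24 h against white it gave 275 to 401 (49.1% to 71.2%, with 49% and 71.2%). It gave 4 to 79 in blue 12 h against red 12 h (0.71% to 14%, with 0.854% and 16.1% of all models). In blue 24 h against red 24 h it gave 30 to 196 (5.33% to 34.8%, with 4.76% and 35.3%). In red 24 h against red 12 h it gave 70 to 256 (12.4% to 45.5%, with 13.5% and 46.6%). In blue 24 h against blue 12 h it gave 26 to 159 (4.62% to 28.2%, with 3.75% and 25.5%). For the interaction it gave 9 to 69 (1.6% to 12.3%, with 1.26% and 10.9%). Without red 24 h library 1 the level excess in red 24 h was 0.17, and the differences in change were 0.02 for red 24 h against white, 0.03 for blue 24 h against red 24 h and 0.05 for red 24 h against red 12 h.

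The level excess over all single-exon models was 0.10 in white and 0.01 in red 24 h, with 0.06 in blue 12 h and 0.09 in blue 24 h. Matched for length and level, which removes a level difference by construction, it was 0.04 in white, -0.05 in red 12 h and 0.03 in red 24 h, with -0.07 in blue 12 h and -0.00 in blue 24 h. For genes of 10 or more exons it was 0.21 in red 12 h, with 0.32 in blue 12 h and 0.39 in blue 24 h, and over all scaffolds 0.26 in white, 0.14 in red 12 h and 0.30 in blue 24 h. The difference in change from white was -0.08 in red 12 h and -0.06 in blue 24 h beside all single-exon models. Matched for length and level it was -0.11 in red 12 h, with -0.13 in blue 12 h and -0.06 in blue 24 h. For 10 or more exons it was 0.06, 0.09 and 0.15 in the same groups, and over all scaffolds 0.05 in blue 12 h and 0.12 in blue 24 h.

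Same-numbered libraries showed little common deviation: correlations ran between -0.063 and 0.147, with 2 of 30 pairs over 0.1. This cannot tell whether same-numbered libraries stem from a common column. With a replicate block counts against white were 346 and 331 in red at 12 h and 24 h and 351 and 322 in blue. Blue against red gave 18 at 12 h and 90 at 24 h. For 24 h against 12 h it was 179 in red and 53 in blue, and 16 for the interaction. In this order they were 61.5%, 58.8%, 62.3%, 57.2%, 3.2%, 16%, 31.8%, 9.41% and 2.84% of the tested intron-rich genes. Of all models 57.9%, 59.7%, 58.9%, 55.5%, 2.51%, 12.5%, 29.9%, 6.68% and 2.28% were called. Depth limits the 71 genes that held under 30 fragments in a library.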
